A study of Mus musculus with 6 samples.

Results

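The Zfp genes are mouse zinc finger genes that carry the symbol Zfp followed by a number. They were the rows of the deposited gene table with such a symbol, selected on their mean FPKM (fragments relative to transcript length and sequencing depth), which had to be at least 1 over the 6 libraries. The table held 27458 genes, of which 391 were Zfp genes and 260 of these reached 1 FPKM. The values that chose them were the means over both genotypes, which ran from 1.001 to 78.99 FPKM with a median of 2.56 FPKM. Of the 260 genes, 246 reached 1 FPKM in the mean of each genotype, 12 in that of KO alone and 2 in that of WT alone. Just inside the limit lay Zfp428 and Zfp113 at 1.001 and 1.007 FPKM, and just outside it Zfp772 and Zfp560 at 0.978 and 0.976 FPKM. The 131 Zfp genes below the limit had a median of 0.403 FPKM, and 37 of them were under 0.1 FPKM.

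The libraries were made from bone marrow macrophages, primary cells that grow out of mouse marrow under macrophage colony-stimulating factor (M-CSF). One group, KO, lacked RKIP on both alleles (RKIP-/-), and the other, WT, carried both (RKIP+/+), with 3 libraries each and M-CSF in both groups. RKIP, or Raf kinase inhibitor protein, is encoded by Pebp1 and binds Raf kinases. The labels used here give no age or sex, no way in which the alleles were made and no link from a library to an animal or a culture. A p-value therefore stands for differences among 3 libraries per genotype, whose source may be technical.

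Most Zfp proteins bind DNA through C2H2 fingers, small loops in which a pair of cysteines and a pair of histidines hold a zinc ion. Many also carry a KRAB box, which recruits the co-repressor Trim28 and the histone methyltransferase Setdb1 and so silences the bound DNA, much of it remnants of retroviruses. A smaller number carry CCCH fingers and bind RNA: in macrophages Zfp36 and its relatives bind AU-rich elements of cytokine messages and speed their decay.

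Pebp1 was 0, 0 and 0 FPKM in KO libraries 1 to 3 and 39.2, 33.2 and 39.1 FPKM in WT libraries 1 to 3, so the libraries fit their labels. Total estimated counts ran from 63607276 to 70059042 in KO and from 53188659 to 55255365 in WT, so the KO libraries were the deeper ones. Of 9 macrophage markers 3 were higher and 4 lower, and they summed to 19070 to 19350 FPKM in KO and 20870 to 22340 FPKM in WT. Of 12 neutrophil markers 9 were tested and 8 of these were lower, and their sum was 16.8 to 17.6 FPKM in KO and 85.9 to 173.6 FPKM in WT. B cell markers summed to 0.0671 to 0.198 FPKM in KO and 0.158 to 0.526 FPKM in WT, with Ms4a1 and Pax5 under 0.1 FPKM in each library. Stromal markers summed to 977.5 to 1094 FPKM in KO and 948.1 to 1051 FPKM in WT, with 1 marker higher and 1 lower of 5 tested, so the cultures also held stromal RNA. Globin genes were listed at 0 in the KO libraries and at most 0.452 FPKM in the WT libraries. Pf4, a gene of megakaryocytes and platelets and the 1 tested member of the erythroid and megakaryocyte list, rose, at 144, 137 and 142 FPKM in KO libraries 1 to 3 and 107, 113 and 117 FPKM in WT libraries 1 to 3 (log2 fold change 0.27 ± 0.05, edgeR, adjusted p = 0.000918). That list summed to 137.3 to 144.1 FPKM in KO and 106.7 to 117.3 FPKM in WT, nearly all of it Pf4. Itga2b, the other megakaryocyte marker of that list, did not share this rise and was too low to be tested. It was at 0.0903, 0.0803 and 0.0790 FPKM in KO libraries 1 to 3 and 0.0436, 0.120 and 0.115 FPKM in WT libraries 1 to 3, with overlap. The T and NK cell markers summed to 0.323 to 0.577 FPKM in KO and 0.164 to 0.414 FPKM in WT. The part of these other cells in the results below was not tested, and in bulk RNA fewer cells of a type and less RNA per cell cannot be told apart.

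Many of the Zfp genes were higher in KO macrophages and nearly none were lower. By the quasi-likelihood test of edgeR at an adjusted p under 0.05, 104 of the 260 genes rose and 1 fell, against 20.3% of all 11636 tested genes higher and 19.4% lower. By limma on log2(FPKM + 1), 126 Zfp genes were higher and 1 lower, against 2760 higher and 1589 lower of all tested genes. The median log2 fold change (KO over WT) of the Zfp genes was 0.19, against -0.01 over all tested genes, and 217 of the 260 were above 0. In 157 Zfp genes every KO library was above every WT library, against 32.4% of all tested genes, and in 4 every KO library was below, against 19.1%. All 104 genes that rose were among the 157. The changes were small, with a median of 1.33-fold among the genes that rose and 1.92-fold at most. Summed over all 260 genes, KO libraries held 1186 to 1228 FPKM and WT libraries 994.8 to 1010 FPKM, with no overlap. With a correction for transcript length and GC content, described further down, 51 Zfp genes rose (19.6%) and 3 fell (1.15%), against 15.0% of all 11627 genes higher and 16.0% lower.

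**Figure D1:**
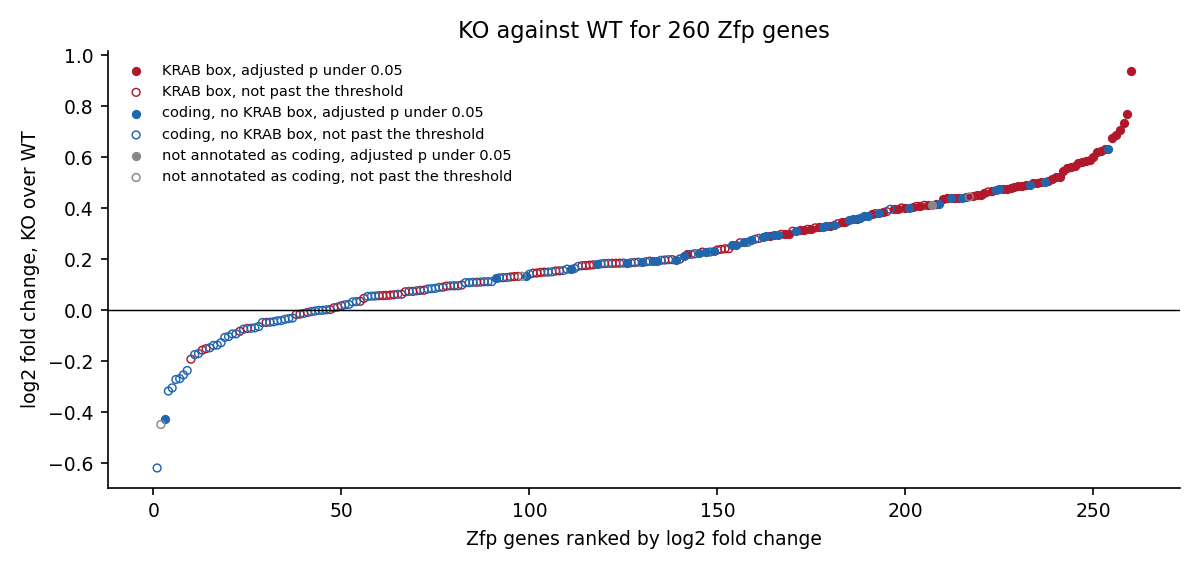
The 260 Zfp genes ordered by log2 fold change, KO over WT (vertical axis), with filled circles past the adjusted p threshold, open circles not past it and colours for KRAB genes, other coding genes and genes not annotated as coding. The ranking runs from -0.62 for Zfp428, which did not pass, to 0.94 for Zfp109, and 104 filled circles lie above 0 against 1 below.

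The limit of 1 FPKM touched few of these calls: 96 of the 246 genes that reached it in both genotypes rose and 1 fell, while 8 of the 12 that reached it in KO alone rose. Zfp109 and Zfp607a, described below, were among these 8. Of the 104 genes, 70 passed whichever single library was left out. The counts of Zfp genes that rose were 77 to 100 when each library was left out in turn.

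The largest rise was that of Zfp109, a KRAB gene with 12 C2H2 fingers at chr7:24227572-24237560 on the minus strand. It was listed at 1.75, 1.75 and 1.89 FPKM in KO libraries 1 to 3 and 1.22, 0.784 and 0.702 FPKM in WT libraries 1 to 3. Its WT mean was below 1 FPKM, so it reached the limit only through the KO libraries. The groups did not overlap, and the difference was 1.92-fold (log2 fold change 0.94 ± 0.20, edgeR, adjusted p = 0.00297, where ± is an approximate standard error). Its neighbour Zfp61, a KRAB gene with 8 fingers at chr7:24291039-24301232 on the minus strand, was at 2.44, 2.501 and 2.64 FPKM in KO libraries 1 to 3 and 1.45, 1.62 and 1.203 FPKM in WT libraries 1 to 3. Each KO library stood above each WT library here too, at 1.704-fold (log2 fold change 0.77 ± 0.12, edgeR, adjusted p = 0.000453).

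Zfp626, a KRAB gene with 17 fingers at chr7:27807196-27822916 on the plus strand, was at 3.07, 2.76 and 3.24 FPKM in KO libraries 1 to 3 and 1.86, 1.55 and 1.84 FPKM in WT libraries 1 to 3. The groups were apart, at 1.66-fold (log2 fold change 0.73 ± 0.10, edgeR, adjusted p = 0.000219). Zfp979, a KRAB gene at chr4:147611937-147642513 on the minus strand, had 5.25, 4.92 and 5.39 FPKM in KO libraries 1 to 3 and 3.22, 3.08 and 2.87 FPKM in WT libraries 1 to 3. It was 1.63-fold higher (log2 fold change 0.71 ± 0.08, edgeR, adjusted p = 4.32e-05), but 16.99% of its sequence is also found in Zfp978, so part of its reads cannot be placed with certainty.

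Zfp182, an X-linked KRAB gene with 14 fingers, was at 1.66, 1.97 and 2.58 FPKM in KO libraries 1 to 3 and 1.22, 1.202 and 1.29 FPKM in WT libraries 1 to 3. All KO libraries were above all WT libraries, with KO library 3 the highest and KO library 1 the lowest of its group (1.61-fold, log2 fold change 0.69 ± 0.14, edgeR, adjusted p = 0.00274). Zfp40, a KRAB gene with 16 fingers at chr17:23173869-23193252 on the minus strand, was at 3.64, 3.62 and 3.74 FPKM in KO libraries 1 to 3 and 2.14, 2.52 and 1.98 FPKM in WT libraries 1 to 3. Its groups were apart at 1.596-fold (log2 fold change 0.67 ± 0.10, edgeR, adjusted p = 0.000266). Zfp704, a gene without KRAB and the longest Zfp transcript at 13830 bases, was at 5.33, 5.18 and 5.31 FPKM in KO libraries 1 to 3 and 3.23, 3.32 and 3.27 FPKM in WT libraries 1 to 3. Its standard error was the smallest of the 10 largest rises, and it was 1.55-fold higher (log2 fold change 0.63 ± 0.04, edgeR, adjusted p = 1.29e-06).

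Zfp119a, Zfp607a and Zfp942, which are all KRAB genes, completed the 10 largest rises. Zfp119a was 2.27 ± 0.372 FPKM in KO and 1.41 ± 0.202 FPKM in WT (SD, n = 3 each), and its call ended without KO library 3 (edgeR, adjusted p = 0.0676). Zfp607a was 1.43 ± 0.158 FPKM in KO and 0.894 ± 0.171 FPKM in WT and Zfp942 was 2.88 ± 0.290 FPKM in KO and 1.81 ± 0.0453 FPKM in WT (SD, n = 3 each). Zfp607a, like Zfp109, reached the limit of 1 FPKM only through the KO libraries. In all 3 genes the KO libraries lay above the WT libraries. Of the 10 largest rises, 9 had a KRAB box.

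The promoters of genes with the largest change are given below from RefSeq (GRCm38.p6), from 250 bases before to 50 bases after the start, 5′ to 3′, with matches to the searched motifs in capitals. They are shown for the 4 largest rises, of which Zfp109 and Zfp61 are neighbours, and for Zfp692, the gene that fell.

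Zfp109, chr7:24237549-24237848, minus strand: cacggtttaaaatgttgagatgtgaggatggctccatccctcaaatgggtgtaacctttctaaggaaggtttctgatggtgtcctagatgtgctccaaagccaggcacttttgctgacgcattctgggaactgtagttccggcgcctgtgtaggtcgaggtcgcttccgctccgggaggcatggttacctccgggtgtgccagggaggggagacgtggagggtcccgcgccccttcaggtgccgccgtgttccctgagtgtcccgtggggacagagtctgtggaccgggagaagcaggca

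Zfp61, chr7:24299500-24299799, minus strand: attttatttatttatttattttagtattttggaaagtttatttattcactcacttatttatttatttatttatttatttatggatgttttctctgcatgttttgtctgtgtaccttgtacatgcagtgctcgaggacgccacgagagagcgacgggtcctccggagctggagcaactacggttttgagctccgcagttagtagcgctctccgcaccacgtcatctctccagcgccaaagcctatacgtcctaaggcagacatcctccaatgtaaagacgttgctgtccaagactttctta

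Zfp626, chr7:27806946-27807245, plus strand: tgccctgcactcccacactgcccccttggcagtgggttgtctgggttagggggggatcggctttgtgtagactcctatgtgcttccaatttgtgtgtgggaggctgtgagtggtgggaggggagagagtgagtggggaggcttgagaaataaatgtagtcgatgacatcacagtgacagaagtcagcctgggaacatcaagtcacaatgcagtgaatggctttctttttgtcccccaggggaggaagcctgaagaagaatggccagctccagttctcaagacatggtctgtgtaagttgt

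Zfp979, chr4:147642459-147642758, minus strand: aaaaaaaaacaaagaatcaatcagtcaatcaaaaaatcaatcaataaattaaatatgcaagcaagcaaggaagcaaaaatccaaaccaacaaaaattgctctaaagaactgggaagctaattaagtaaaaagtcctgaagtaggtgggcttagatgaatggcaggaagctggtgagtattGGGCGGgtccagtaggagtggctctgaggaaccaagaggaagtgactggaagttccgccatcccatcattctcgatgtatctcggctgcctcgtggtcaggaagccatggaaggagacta

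Zfp692, chr11:58306819-58307118, plus strand: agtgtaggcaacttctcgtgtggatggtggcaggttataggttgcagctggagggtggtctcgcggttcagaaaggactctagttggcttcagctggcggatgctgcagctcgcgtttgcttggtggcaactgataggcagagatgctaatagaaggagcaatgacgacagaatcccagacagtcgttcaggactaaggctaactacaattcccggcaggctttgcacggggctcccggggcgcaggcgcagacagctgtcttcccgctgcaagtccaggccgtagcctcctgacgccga

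The motifs searched were GGGCGG, known to be bound by Sp1 and its relatives, CCGGAAG (ETS factors), TGACGTCA (CREB), AAGATGGCG (Yy1) and TATAAA (the TATA box). The windows of Zfp109, Zfp61, Zfp626 and Zfp692 held none of them, and that of Zfp979 held GGGCGG. RefSeq windows were found for 213 of the 260 genes, 255 windows in all, and were set beside all 32851 windows. Matches were counted on both strands, and each motif was counted separately whether or not it overlapped another. CCGGAAG was in 21.6% of the Zfp windows and 25.8% of the KRAB Zfp windows, against 8.86% of all windows. It was in 21.6% of the windows of genes that rose and in 21.6% of the others. TATAAA was in 5.88% of the Zfp windows and 13.6% of all windows. GGGCGG was in 49.0% of the Zfp windows and 35.7% of all windows, TGACGTCA in 3.92% and 1.79%, and AAGATGGCG in 3.53% and 1.4%. The windows also differed in base composition. Median GC content was 56.3% in the Zfp windows, 52.3% in the KRAB Zfp windows and 52.7% in all windows. The median number of CG steps was 16, 10.5 and 7. The part of base composition in the motif shares was not tested. A match describes the letters of the window, not binding.

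Zfp692, the gene that fell, encodes a protein with 3 C2H2 fingers and no KRAB box at chr11:58307069-58314627 on the plus strand. It was at 1.84, 1.64 and 1.903 FPKM in KO libraries 1 to 3 and 2.28, 2.43 and 2.25 FPKM in WT libraries 1 to 3. All KO libraries were below all WT libraries, at 0.745-fold (log2 fold change -0.42 ± 0.14, edgeR, adjusted p = 0.0338). The call was not stable: it ended in each of the 6 fits that left out 1 library (edgeR, adjusted p from 0.0551 to 0.108). A further 3 Zfp genes had all KO libraries below all WT libraries without passing, namely Zfp3, Zfp513 and Zfp691 at log2 fold changes of -0.27, -0.17 and -0.25.

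**Figure D2:**
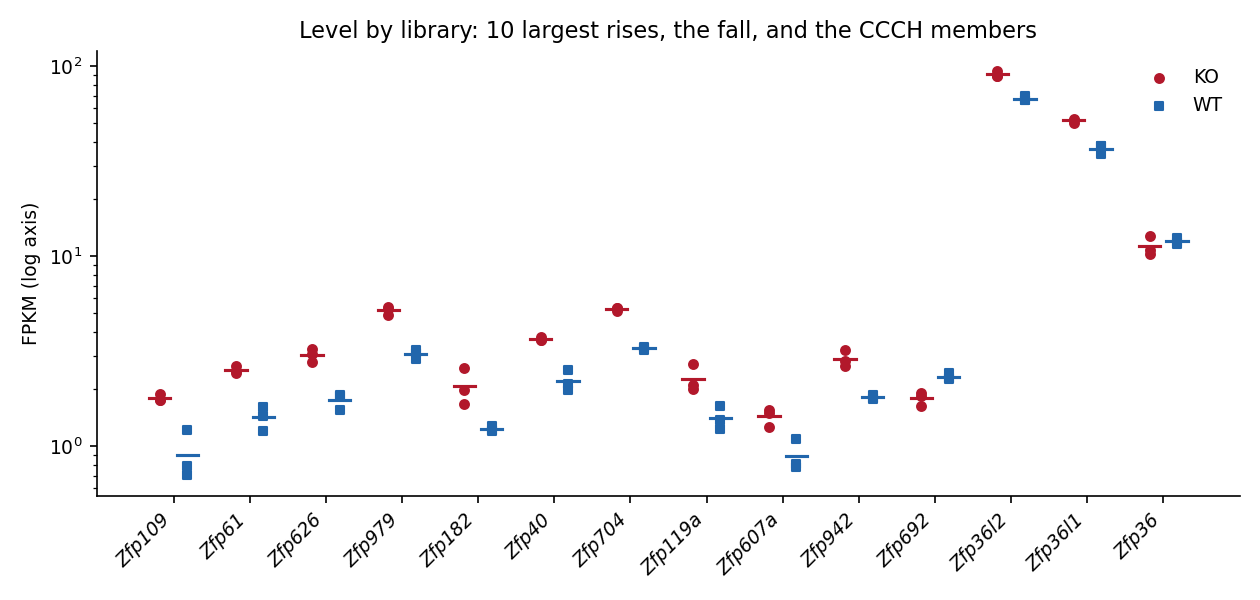
FPKM on a log axis for the 10 largest rises, Zfp692 and the 3 CCCH genes, with each KO library as a circle, each WT library as a square and group means as bars. KO lies above WT in the 10 rises, Zfp36l2 and Zfp36l1, below it in Zfp692, and the groups overlap in Zfp36.

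Among the CCCH genes, whose proteins bind AU-rich elements and recruit the deadenylase complex, 2 of 3 rose and 0 fell. Zfp36l2, which had the highest mean level of all Zfp genes, was at 88.5, 94.5 and 88.5 FPKM in KO libraries 1 to 3 and 69.5, 66.1 and 66.8 FPKM in WT libraries 1 to 3. The groups did not overlap, and it was 1.29-fold higher (log2 fold change 0.37 ± 0.04, edgeR, adjusted p = 5.85e-05). Zfp36l1 was at 50.4, 52.8 and 52.4 FPKM in KO libraries 1 to 3 and 37.9, 38.1 and 34.6 FPKM in WT libraries 1 to 3, with the groups apart and a rise of 1.36-fold (log2 fold change 0.44 ± 0.05, edgeR, adjusted p = 3.05e-05). Zfp36, which encodes tristetraprolin, was at 10.8, 12.8 and 10.3 FPKM in KO libraries 1 to 3 and 11.9, 12.4 and 11.6 FPKM in WT libraries 1 to 3. Its groups overlapped and it did not pass (log2 fold change -0.14 ± 0.08, edgeR, adjusted p = 0.177), but without KO library 2 it was lower (edgeR, adjusted p = 0.0146). The promoter window of Zfp36l1 has a TATAAA match:

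Zfp36l1, chr12:80112964-80113263, minus strand: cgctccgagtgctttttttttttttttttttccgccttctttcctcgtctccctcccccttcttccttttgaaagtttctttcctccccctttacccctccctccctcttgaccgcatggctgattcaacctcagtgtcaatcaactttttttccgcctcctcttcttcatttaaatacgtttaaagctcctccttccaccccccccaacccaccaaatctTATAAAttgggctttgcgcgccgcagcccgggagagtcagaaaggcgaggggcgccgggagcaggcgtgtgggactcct

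Genes that act beside these proteins were also measured. Of 22 tested deadenylation and decay partners, 8 rose (36.4%) and 0 fell, against 20.3% of all tested genes higher and 19.4% lower. The partners had a median length of 4823 bases, and of all tested genes of 4296 to 5061 bases 31.0% were higher and 9.64% lower. The median change of these partners was 0.07 (log2). They were led by Cnot6l, a deadenylase subunit (10.3 ± 0.412 FPKM in KO and 6.57 ± 0.358 FPKM in WT, SD, n = 3 each, log2 fold change 0.60 ± 0.05, edgeR, adjusted p = 5.04e-06), and Xrn1, the 5′ to 3′ exonuclease (4.65 ± 0.358 FPKM in KO and 3.28 ± 0.141 FPKM in WT, log2 fold change 0.45 ± 0.06, edgeR, adjusted p = 0.000144). Of 8 tested messages known as targets of Zfp36 (1 of them Zfp36 itself), 0 rose and 5 fell (62.5%), with a median of -0.28. These targets had a median length of 1824 bases. Of all tested genes of 1607 to 2143 bases, 6.44% were higher and 29.4% lower. Ccl2, a monocyte attractant, was at 11.8, 9.42 and 11.1 FPKM in KO libraries 1 to 3 and 16.4, 19.1 and 20.3 FPKM in WT libraries 1 to 3, and the groups were apart (log2 fold change -0.84 ± 0.11, edgeR, adjusted p = 0.000118). Tnf was at 2.21, 2.47 and 2.802 FPKM in KO libraries 1 to 3 and 3.96, 3.87 and 4.42 FPKM in WT libraries 1 to 3, with every KO library below the WT libraries (log2 fold change -0.77 ± 0.14, edgeR, adjusted p = 0.00112). Plaur, the urokinase receptor, Ccl3 and Vegfa were the others that fell, at -0.69, -0.35 and -0.21. With the length and GC correction, described further down, the call of Ccl3 ended (-0.09, edgeR, adjusted p = 0.519), and those of the other 4 remained. Both lists were chosen with earlier results of these data known.

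The KRAB genes were the larger class among the Zfp genes. Of 135 genes with a KRAB box, 63 rose (46.7%), 0 fell and 126 were above 0, with a median log2 fold change of 0.32. Of 121 coding genes without one, 40 rose (33.1%), 1 fell and 88 were above 0, with a median of 0.13. The remaining 4 genes are not protein coding by GENCODE, and of these Zfp125, a transcribed pseudogene, rose. Whether the difference between the classes exceeds the spread was not tested.

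By number of C2H2 fingers, the genes with at least 15 had the highest share of rises, 31 of 49 (63.3%), with a median of 0.33. Over all tested genes 20.3% were higher and 19.4% lower. These 49 genes also had the lowest median GC content (40.7%) and the longest median transcript (4209 bases) of the finger classes. Of 81 genes with 10 to 14 fingers 26 rose, of 70 with 5 to 9 fingers 25 rose, of 43 with 1 to 4 fingers 15 rose and 1 fell, and of 13 with none 6 rose. This order did not hold with the length and GC correction. With it, 12 of the 49 genes with at least 15 fingers rose (24.5%) and 0 fell. Of the 13 with none, 6 rose (46.2%) and 2 fell (15.4%). With 1 to 4, 5 to 9 and 10 to 14 fingers, 16.3%, 18.6% and 16.1% rose. Over all genes 15.0% were higher and 16.0% lower with the correction. The median Zfp protein had 10 fingers and the highest number was 32, in Zfp142.

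KRAB genes whose symbols do not begin with Zfp gave 8 rises (21.1%) and 0 falls of 38, with a median of 0.24. This share of rises was near the 20.3% of all tested genes, while 19.4% of all tested genes were lower. Zbtb genes, whose proteins join C2H2 fingers to a BTB domain, gave 11 rises and 2 falls of 33 with a median of 0.07. Zkscan genes gave 4 rises of 8 and Zscan genes 2 of 7, with no fall in either, and the Zc3h genes, a CCCH family, 3 rises (18.8%, also near all tested genes) and 1 fall of 16. With the length and GC correction the rises were 7 for these KRAB genes, 3 for Zbtb, 2 for Zkscan, 1 for Zscan and 3 for Zc3h genes. The falls with it were 4 for Zbtb, 1 for Zc3h and 0 for the other families. Of Zbtb genes 9.09% were then higher and 12.1% lower, with a median of -0.02. Over all 11627 genes 15.0% were higher and 16.0% lower with the correction.

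Of 20 tested co-repressor genes of the KRAB pathway, 5 rose and 3 fell, shares near the 20.3% higher and 19.4% lower of all tested genes, and the median change was 0.08 (log2). Trim28, which KRAB boxes bind, was at 27.5, 29.2 and 26.4 FPKM in KO libraries 1 to 3 and 28.4, 27.5 and 27.3 FPKM in WT libraries 1 to 3. Its groups overlapped and it did not pass (log2 fold change -0.05 ± 0.05, edgeR, adjusted p = 0.382). Setdb1, the methyltransferase, was at 13.5, 13.02 and 13.5 FPKM in KO libraries 1 to 3 and 11.5, 10.8 and 11.01 FPKM in WT libraries 1 to 3, with each KO library above the WT libraries (log2 fold change 0.21 ± 0.04, edgeR, adjusted p = 0.00250). Tasor, of the silencing complex HUSH, rose 1.56-fold (log2 fold change 0.64 ± 0.06, edgeR, adjusted p = 2.42e-05), and Atrx, a chromatin remodeller, rose 1.32-fold (log2 fold change 0.40 ± 0.06, edgeR, adjusted p = 0.000212). Uhrf1, which guides maintenance methylation, fell (log2 fold change -0.56 ± 0.07, edgeR, adjusted p = 0.000126), as did Dnmt1, the maintenance methyltransferase (log2 fold change -0.16 ± 0.04, edgeR, adjusted p = 0.00908), and Hdac1 (log2 fold change -0.20 ± 0.07, edgeR, adjusted p = 0.0330), a histone deacetylase. Once length and GC content were corrected for, as described further down, the calls of Setdb1 (0.10, edgeR, adjusted p = 0.0839), Atrx (0.08, 0.170) and Hdac1 (-0.09, 0.315) ended. Those of Tasor (0.34, 0.00110), Uhrf1 (-0.52, 0.000312) and Dnmt1 (-0.23, 0.000713) remained.

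Zfp genes known to silence retroelements or imprinted genes were measured in 4 of 6 cases, with 1 rise and 0 falls. This share of rises was near the 20.3% of all tested genes, of which 19.4% were lower. These 4 genes gave 0 rises and 0 falls once length and GC content were corrected for, as described further down. Zfp445, which keeps imprints in the embryo, was at 11.8, 11.1 and 11.8 FPKM in KO libraries 1 to 3 and 10.1, 9.34 and 9.29 FPKM in WT libraries 1 to 3 and rose with the groups apart (log2 fold change 0.22 ± 0.05, edgeR, adjusted p = 0.00442). Zfp809, which silences murine leukaemia virus in stem cells, was 4.51 ± 0.899 FPKM in KO and 4.17 ± 0.139 FPKM in WT, and Zfp568, a repressor of placental Igf2, was 2.57 ± 0.0768 FPKM in KO and 2.37 ± 0.190 FPKM in WT (SD, n = 3 each), and neither passed.

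Zfp genes of chromatin and transcription cofactors gave 4 rises and 0 falls of 10, against 104 rises and 1 fall of all 260 Zfp genes. Among all tested genes 20.3% were higher and 19.4% lower. Once length and GC content were corrected for, as described further down, 1 of these 10 genes rose and 0 fell. Of all 11627 genes, 15.0% were then higher and 16.0% lower. Zfp644, a partner of the H3K9 methyltransferase G9a, was at 3.38, 3.03 and 3.34 FPKM in KO libraries 1 to 3 and 2.61, 2.43 and 2.39 FPKM in WT libraries 1 to 3, and its groups were apart (log2 fold change 0.33 ± 0.06, edgeR, adjusted p = 0.00177). Zfp451, a SUMO ligase, rose 1.28-fold (log2 fold change 0.36 ± 0.06, edgeR, adjusted p = 0.000689), and so did Zfp217, a corepressor component (log2 fold change 0.20 ± 0.04, edgeR, adjusted p = 0.00448), and Zfp592 (log2 fold change 0.19 ± 0.06, edgeR, adjusted p = 0.0197), which lost its call without KO library 1 or 3 or WT library 1 or 2 (edgeR, adjusted p from 0.0510 to 0.0625). Zfp687, Zfp532, Zfp410, Zfp335, Zfp516 and Zfp219 did not pass.

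Zfp genes with known roles in blood, bone or fat cells gave 4 rises (50.0%) and 0 falls of 8 tested, against 20.3% of all tested genes higher and 19.4% lower. Zfp148, a factor of GC-rich promoters, was at 7.69, 7.42 and 7.99 FPKM in KO libraries 1 to 3 and 5.795, 6.21 and 6.18 FPKM in WT libraries 1 to 3, and its groups were apart (log2 fold change 0.29 ± 0.05, edgeR, adjusted p = 0.000526). Zfp281 (log2 fold change 0.26 ± 0.07, edgeR, adjusted p = 0.0150), which acts in stem cells, lost its call without KO library 1 or 3 or WT library 3 (edgeR, adjusted p from 0.0533 to 0.0616), and Zfp384 (log2 fold change 0.13 ± 0.04, edgeR, adjusted p = 0.0407), a nuclear matrix factor that acts in osteoblasts, lost its call without any 1 of the 6 libraries (edgeR, adjusted p from 0.0504 to 0.141). Zfp703, a transcriptional corepressor, was 22.7 ± 2.09 FPKM in KO and 17.1 ± 1.92 FPKM in WT (SD, n = 3 each), with the groups apart (log2 fold change 0.35 ± 0.08, edgeR, adjusted p = 0.00401). Zfp521, an antagonist of Ebf1, was 1.46 ± 0.104 FPKM in KO and 1.23 ± 0.166 FPKM in WT, and Zfp467, which shifts marrow stromal cells between fat and bone, was 6.595 ± 0.428 FPKM in KO and 5.96 ± 0.106 FPKM in WT (SD, n = 3 each), and neither passed.

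Zfp genes of RNA, ribosomes and translation gave 2 rises and 0 falls of 9. This share of rises, 22.2%, was near the 20.3% of all tested genes, while 19.4% of all tested genes were lower. Zfp106, an RNA-binding protein, was at 29.5, 27.9 and 30.7 FPKM in KO libraries 1 to 3 and 23.8, 24.98 and 25.5 FPKM in WT libraries 1 to 3, and Zfp638 was at 5.07, 4.67 and 5.41 FPKM in KO libraries 1 to 3 and 3.64, 3.94 and 3.78 FPKM in WT libraries 1 to 3. Both had the groups apart (log2 fold change 0.19 ± 0.05, edgeR, adjusted p = 0.00842 for Zfp106 and log2 fold change 0.36 ± 0.06, edgeR, adjusted p = 0.000478 for Zfp638). Zfp598, which marks stalled ribosomes, was 7.64 ± 0.458 FPKM in KO and 8.27 ± 0.767 FPKM in WT (SD, n = 3 each) and did not pass, and Zfp385a, at 30.3, 33.5 and 27.9 FPKM in KO libraries 1 to 3 and 29.1, 28.8 and 29.1 FPKM in WT libraries 1 to 3, had overlapping groups. Of 4 further genes, 3 rose: Zfp91, an ubiquitin ligase of the NF-kB pathway, was at 18.4, 17.6 and 20.6 FPKM in KO libraries 1 to 3 and 14.8, 15.1 and 14.7 FPKM in WT libraries 1 to 3 (log2 fold change 0.29 ± 0.06, edgeR, adjusted p = 0.00178), Zfp277 had a log2 fold change of 0.26 and Zfp318, which B cells need for IgD, of 0.23. Zfp207, which acts at kinetochores, was 20.7 ± 1.37 FPKM in KO and 19.6 ± 0.944 FPKM in WT (SD, n = 3 each) and did not pass.

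The 4 shortest transcripts were those of Zfp652os, Zfp580, Zfp428 and Zfp524, of 537 to 1263 bases. Zfp524 was at 8.67, 8.57 and 7.56 FPKM in KO libraries 1 to 3 and 6.57, 6.60 and 6.295 FPKM in WT libraries 1 to 3, with the groups apart (log2 fold change 0.30 ± 0.10, edgeR, adjusted p = 0.0305), but the call ended without KO library 1 or 2 or any 1 WT library (edgeR, adjusted p from 0.0571 to 0.113) and 43.6% of its sequence is shared with Gm44973. Zfp428 was at 0.789, 0.754 and 0.889 FPKM in KO libraries 1 to 3 and 1.43, 0.841 and 1.304 FPKM in WT libraries 1 to 3, with overlap, and passed as lower without WT library 2 alone (edgeR, adjusted p = 0.0212). Zfp580, at 0.40 (log2 fold change), and the antisense transcript Zfp652os, at 0.44, did not pass, though Zfp580 passed as higher without KO library 2 (edgeR, adjusted p = 0.0392). The 4 longest, Zfp704, Zfp738, Zfp318 and Zfp451, of 11880 to 13830 bases, all rose. Zfp738, a KRAB gene with 20 fingers, was 1.79 ± 0.0728 FPKM in KO and 1.24 ± 0.0149 FPKM in WT (SD, n = 3 each), with the groups apart (log2 fold change 0.48 ± 0.07, edgeR, adjusted p = 0.000188). Zfp710, among the 6 genes with the highest level, was 22.9 ± 0.492 FPKM in KO and 20.1 ± 0.124 FPKM in WT (SD, n = 3 each, log2 fold change 0.14 ± 0.04, edgeR, adjusted p = 0.0182), a call that ended without KO library 1 or WT library 2 or 3 (edgeR, adjusted p up to 0.0551).

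Many Zfp genes lie in clusters. With gaps of at most 1 Mb and at least 3 genes, 149 of the 260 lay in 23 clusters, and 57 of these rose and 1 fell, against 47 of 111 outside clusters with none lower. The largest, of 19 genes, lay at chr17:21008903-23564238. In it 18 genes had a KRAB box, 10 rose, none fell, the median change was 0.38 (log2), and it includes Zfp40, Zfp942 and Zfp760. A cluster of 15 KRAB genes at chr13:67121660-67755228 gave 11 rises, with a median of 0.45, among them Zfp729a (log2 fold change 0.58 ± 0.08, edgeR, adjusted p = 0.000285), with 27 fingers, and Zfp874a (log2 fold change 0.52 ± 0.09, edgeR, adjusted p = 0.000865). In the cluster at chr7:27731389-28380253, 5 of 7 rose, including Zfp626, Zfp607a and Zfp974, and Zfp36 lies at its end. By contrast, 3 of 12 rose at chr17:32765496-33631779 and 3 of 7 at chr7:24081924-25227507, namely Zfp109, Zfp61 and Zfp111, where the median was 0.00.

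Of 155 tested genes that are not Zfp genes but lie in the spans of these clusters, 9 were higher (5.81%) and 48 lower, against 20.3% and 19.4% of all tested genes. The difference from the Zfp genes of the same spans was not tested. On chromosome 12, 5 of 6 Zfp genes rose, on chromosome 13 13 of 21, and on chromosome 17 18 of 39, while on chromosome 7, the richest, 19 of 57 rose. Within 10 Mb of Pebp1 lie Zfp664 (log2 fold change 0.19 ± 0.06, edgeR, adjusted p = 0.0330) and Zfp932, which did not pass.

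**Figure D3:**
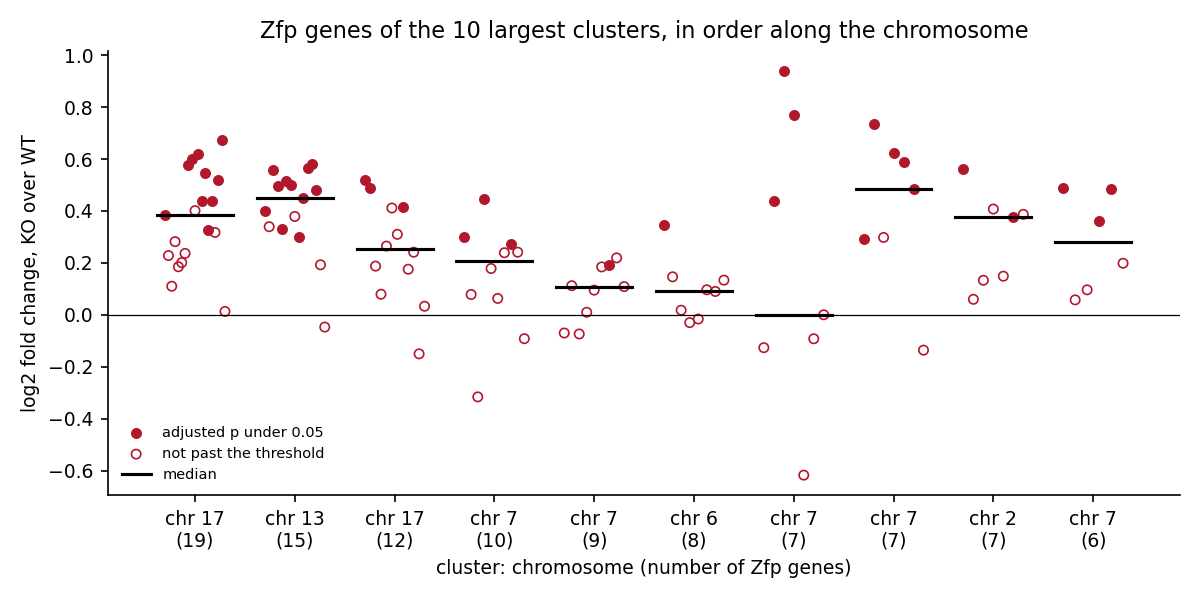
Log2 fold change, KO over WT, of the Zfp genes in the 10 largest clusters, in order along the chromosome, with filled circles past the adjusted p threshold, open circles not past it and bars at the median. The medians run from 0.00 to 0.49, and in no cluster is a filled circle below 0.

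Many Zfp genes are near copies of each other, so the share of reads that each received is uncertain. Of the 260, 28 share over 10% of their 100-base windows with other genes, and 12 of these rose. Zfp965 and Zfp969 share all of theirs, Zfp966 78.7% and Zfp973 74.9%. Without the 28 genes, 92 of 232 rose and 1 fell, so the share of rises, 39.7%, is nearly that of all. Zfp genes overlapping a gene on the opposite strand numbered 66, of which 22 rose, and those overlapping on the same strand 37, of which 21 rose.

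Rises were more frequent in long and in AT-rich transcripts, among the Zfp genes and over the whole table. In the second decile of length (967 to 1606 bases) 4 of 16 Zfp genes rose and 0 fell, the median change being 0.15 (log2), against 52 rises and 426 falls and a median of -0.17 among all 1163 genes. In the fifth decile 9 of 38 Zfp genes rose with a median of 0.12, against 126 of all 1165 genes with a median of -0.03. In the longest decile (6575 bases and more) 22 of 36 Zfp genes (61.1%) rose with a median of 0.23, against 680 of all 1163 genes (58.5%) with a median of 0.20. In the longest decile the Zfp share was thus close to that of all genes.

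Across Zfp genes, which are not independent replicates, Pearson's r of the log2 fold change with log10 transcript length was 0.19 (260 genes), 0.15 in KRAB genes (135 genes) and 0.49 in the coding genes without KRAB (121 genes), against 0.36 over all genes. With GC content r was -0.54 over Zfp genes and -0.39 in KRAB genes, against -0.18 over all genes. The points share libraries, depth and base composition.

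Many Zfp transcripts were AT-rich. Of the 260, 128 (49.2%) lay in the lowest 2 deciles of GC content. In the lowest decile (17.1 to 41.2% GC) 57 of 94 Zfp genes (60.6%) rose, with a median of 0.38, against 531 of 1163 (45.7%) and 0.20 over all genes. In the highest decile 2 of 26 Zfp genes rose and 1 fell, with a median of -0.01, against 101 of 1163 and -0.07. KRAB genes had a median GC content of 40.7%, and the other coding Zfp genes of 50.7%.

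**Figure D4:**
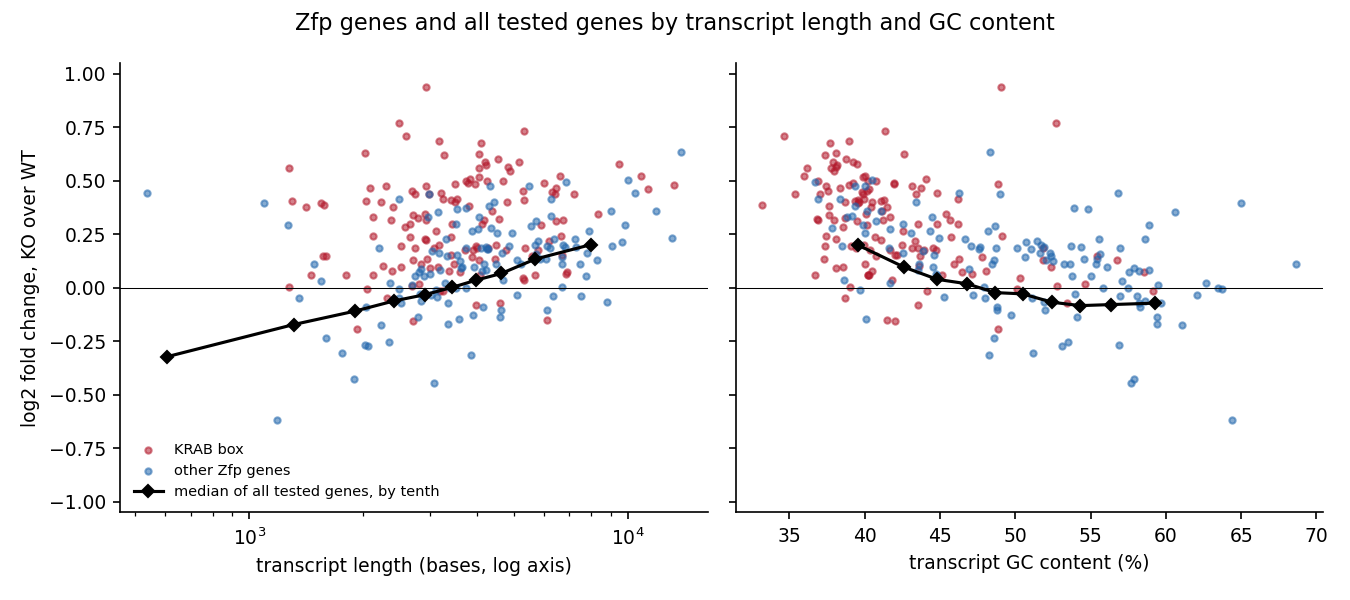
Log2 fold change, KO over WT, of the 260 Zfp genes against transcript length in bases (left, log axis) and GC content in percent (right), with KRAB genes and other Zfp genes in different colours and diamonds at the median of all tested genes by decile. KRAB genes cluster at low GC content and most lie above the diamonds.

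A correction then took out, library by library, the trend of counts on length and GC content. With it the count of Zfp genes that rose was 51, and 3 fell, against 15.0% of all 11627 genes higher and 16.0% lower. The 3 falls were Zfp101 (-0.38, edgeR, adjusted p = 0.0344), Zfp330 (-0.27, adjusted p = 0.0146) and Zfp608 (-0.23, adjusted p = 0.0223). The share of rises, 19.6%, was near the 15.0% of all genes, while the share of falls was 1.15%, and the median log2 fold change was 0.11 against -0.00 over all genes. Of KRAB genes 33 of 135 rose and 1 fell, with a median of 0.18, and of coding genes without KRAB 18 rose and 2 fell, with a median of 0.06.

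All 10 largest rises passed with the correction, Zfp109 at 0.98 (edgeR, adjusted p = 0.00304), Zfp61 at 0.86 (0.000308) and Zfp704 at 0.40 (4.63e-05). Zfp36l1 and Zfp36l2 were at 0.48 and 0.41 with it, above their values without it. Zfp692, at -0.30 (edgeR, adjusted p = 0.136), did not pass. Among the longer genes, Zfp451 was at 0.04, Zfp638 at 0.05 and Zfp445 at 0.01, and none of these passed. Zfp644 (0.06, edgeR, adjusted p = 0.466), Zfp592 (0.07, 0.269), Zfp281 (0.10, 0.243), Zfp277 (0.06, 0.450), Zfp710 (0.08, 0.111) and Zfp738 (0.13, 0.135) also lost their calls. Zfp106, Zfp148 and Zfp318 lost theirs with values just below 0. Zfp217, Zfp91, Zfp384, Zfp703 and Zfp524 still passed, at 0.12, 0.19, 0.15, 0.38 and 0.48. In the chromosome 13 cluster 6 of 15 genes rose with the correction and in the large chromosome 17 cluster 4 of 19. Of 20 co-repressor genes 1 rose (5%, Tasor) and 3 fell (15%, Uhrf1, Dnmt1 and Cbx5, the last at -0.15). Of 22 decay partners 3 rose (13.6%) and 1 fell (4.55%), and of 8 Zfp36 targets 4 fell (50%). Over all 11627 genes 15.0% were higher and 16.0% lower with the correction.

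**Figure D5:**
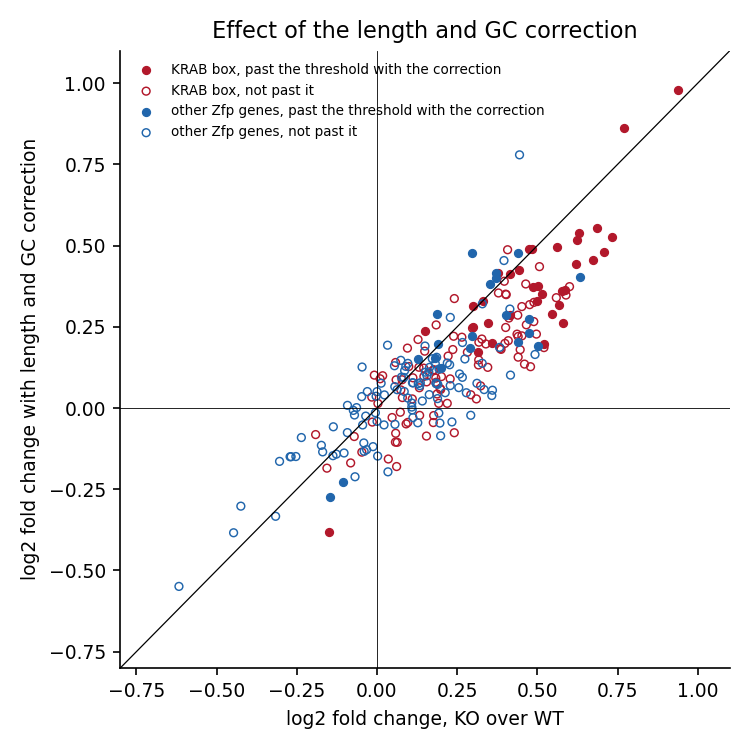
Log2 fold change, KO over WT, of each Zfp gene without (horizontal) and with (vertical) the length and GC correction, with filled circles past the threshold with the correction, open circles not past it, colours for KRAB and other Zfp genes and a diagonal of equal values. Points lie mostly below the diagonal, and 51 genes pass as higher with the correction against 104 without it.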

How the data were processed

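The authors deposited 1 gene table with FPKM and an estimated count per library. The tools listed, without roles, per the submitters' processing notes are StringTie 1.3.4d, HISAT2 2.0.4 and cutadapt 1.9. The genome build is not given in the sources used here. The deposited estimated counts are whole numbers heaped on multiples of 4 (5769 values of 4 against 3204 of 3), so 1 fragment may stand for about 4 counts. Per the labels' protocols, RNA was poly(A)-selected and the second strand was marked, but whether counting used strand is not given, so genes and antisense partners cannot be told apart.

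Estimated counts were compared with edgeR 4.0.16 (R 4.3.3, quasi-likelihood, TMM scaling, two-sided, Benjamini-Hochberg over 11636 genes whose mean FPKM reached 1, threshold 0.05). The ± of a log2 fold change is an approximate SE, and fold changes include the scaling, so they differ from ratios of FPKM means. Chi-square over degrees of freedom between replicate libraries was 4.08 to 8.77. Since 1 fragment may stand for about 4 counts, the lower of these values do not settle whether replicates differed by more than counting error. Each library counted as 1 replicate. Gene IDs of all 260 Zfp genes matched GENCODE M21 (GRCm38), 218 with identical coordinates, and coordinates are those of the deposited table. Length, GC content, KRAB boxes (a 40-residue profile, at least 25 bits) and C2H2 fingers came from the annotated transcripts and their translation, since the plan to use RefSeq proteins could not be followed. The correction used a loess trend (span 0.3) on length and GC content per library. Python 3.11.15, numpy 2.4.6, pandas 2.3.3 and matplotlib 3.10.9 were used.

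Named genes are Pebp1, the 10 largest rises, the falls, the 6 highest levels, the list members and the 4 shortest and 4 longest transcripts; genes named in clusters, the non-passing genes with separated groups and the corrected falls were chosen after their values were seen. The members and lists were chosen with earlier results of these data known. The alternatives were DESeq2 1.42.0, limma 3.58.1 on log2(FPKM + a pseudocount), other filters and scalings, the replicate block and leaving out each library. Longer promoter motifs were also searched and are not reported here. The test was tried on simulated counts.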

Additional observations from a re-analysis of the deposited data

How the results depend on the processing

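The count of Zfp genes that rose, 104, was 51 with the length and GC correction and 49 with the replicate block and the correction together, and KRAB genes that rose, 63, were 33 and 31. Leaving out each library in turn gave 77 to 100 rises of Zfp genes, 45 to 64 of KRAB genes and 0 to 1 falls, none of them Zfp692. With the correction, leaving out libraries gave 32 to 44 rises (32 without KO library 3), 0 to 2 falls and 20 to 27 KRAB rises. Falls, 1 without a correction, were 3 with it and with the block and the correction, 2 with library totals alone and with limma at pseudocounts of 0.1 and 0.5, and 0 without the FPKM filter and with the replicate block. The median, 0.19, was 0.11 with the correction, with and without the block, and 0.24 in limma at 0.1. Over all genes, 1500 were lower in limma at 0.1 against 2253, and limma at 1 gave 2760 higher and 1589 lower. With the correction Zfp106, Zfp148 and Zfp318 changed sign, at -0.0156, -0.0224 and -0.0429 (edgeR, adjusted p = 0.774, 0.690 and 0.565), and at -0.0161, -0.0223 and -0.0428 with the block as well. The cause was not tested. KO and WT libraries of the same replicate number had correlations of 0.0230, 0.187 and -0.0379 in their deviations from the group means. With 3 libraries per genotype these values cannot settle whether the libraries were paired. The block gave 101 rises. DESeq2 gave 109 rises and 1 fall. Of 1008 comparisons of named genes with an alternative, 936 kept direction and side of the threshold. Low levels limit precision: the median Zfp gene had 2.56 FPKM.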
